A study of Mus musculus and Mus musculus
Rattus norvegicus with 30 samples.

Results

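Rat-mouse hybrid embryonic stem cells, called RMES, are made by fusing a haploid mouse with a haploid rat embryonic stem cell, so that each cell carries 1 mouse and 1 rat copy of the genome and both copies meet the same proteins. The response of the mouse copy to induced Cdx2 is described here, from the reads that matched the mouse genome better than the rat genome. Of 34923 genes in the mouse-allele count table, the 35 mt- genes were left out, 34888 remained and 16858 had enough counts to be tested. The comparison set 2 induced libraries against 2 WT libraries of RMES cells, 4 of the 30 samples of the series. The induced cells carried Flag-tagged mouse Cdx2 (mCdx2-OE) or rat Cdx2 (rCdx2-OE) on a lentiviral vector switched on by doxycycline (DOX) for 48 h, with 1 library each. They were pooled as 1 group of 2. All RMES cells were grown in N2B27 medium with PD0325901, CHIR99021 and mouse leukaemia inhibitory factor (mLIF), that is with the Mek and Gsk3 kinases inhibited and the Lif receptor engaged. The labels do not say whether the WT cells carried the vector or received DOX, nor whether the 2 WT libraries came from separate cultures, so the p-values measure the spread between these samples, which may be technical. As each induced line is 1 line, effects of induction and differences between the lines that existed before it cannot be told apart.

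Cdx2 is a homeobox transcription factor of the caudal family. In the early mouse embryo it marks the trophectoderm, the outer layer that forms the placenta, and it is needed there; later it acts in the tail end of the embryo, where it regulates Hox genes, and in the intestinal epithelium. When it is forced on in embryonic stem cells, genes of the trophoblast are switched on and pluripotency genes are turned down, which is why the ES cell is a common test bed for it. The question the comparison addresses is how the mouse copy of the genome responds when its cells are pushed in that direction while a rat copy shares the nucleus.

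The libraries held 36166038 to 41418817 counts on the mouse allele. Values are CPM, counts scaled to a common library size by the trimmed mean of M-values (TMM), and 4 values in a row are always those of WT replicate 1, WT replicate 2, mCdx2-OE and rCdx2-OE. The groups differed beyond the induction. In WT the mt- genes took 2.32% and 2.65% of the mouse counts and 0.00592% and 0.00775% of the rat counts, whereas in the induced libraries they took 0.0313% and 0.0259% of the mouse counts and 14.3% and 13.9% of the rat counts. Mouse reads made up 56.1% and 56.3% of all assigned reads in WT and 50.7% and 50.6% after induction. The part of these differences in the results below was not tested.

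Cdx2 itself was read first, as a check on the labels. On the mouse allele it stood at 131, 129, 983 and 4.47 CPM, so that it was high in the mCdx2-OE library and below WT in the rCdx2-OE library. On the rat allele it stood at 489, 475, 50.9 and 948 CPM, the mirror image. Each transgene was thus counted on the allele of its own species, and transgene and resident reads of a species cannot be told apart in these counts. The reads of both alleles together gave 247 and 241 Cdx2 CPM in WT and 592 and 474 in the mCdx2-OE and rCdx2-OE libraries. In mESCs of the same series, Cdx2 was at 1.41 and 1.25 CPM in WT and at 104, 134, 74.4 and 69.8 CPM after induction. The WT RMES libraries thus held Cdx2 RNA on the mouse allele at a level of the same order as induced mESCs, and on the rat allele at a higher one. Each allele was scaled to its own counts, so these levels compare only roughly. The pooled mouse-allele change of 1.93 ± 1.0 on the log2 scale (SE, 2 against 2 libraries) did not pass the test (adjusted p = 0.0851 in the quasi-likelihood test of edgeR after Benjamini-Hochberg adjustment), and it was -4.86 without the mCdx2-OE library.

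In edgeR's quasi-likelihood test, 4771 genes (28.3% of those tested) were higher and 2718 (16.1%) lower in the induced libraries at an adjusted p under 0.05 and a change of over 2-fold, and only such genes are said below to have risen or fallen. Of all calls 63.7% were higher, or 77.1% with library totals in place of TMM. At any fold, 7213 genes (42.8%) were higher and 6619 (39.3%) lower. The counts of list members given below stand beside the 28.3% and 16.1% of all genes tested. A list near both shares is not set apart from the genes tested as a whole. The median log2 fold change of all genes tested was 0.07. It was 0.04 with RLE scaling, 0.29 with upper quartile scaling and 0.47 when only library totals were used, so a gene or list near 0 has a direction only relative to that median. A correction for gene length and transcript GC content, chosen after the data were seen, is given beside a list where it turned its median or moved it by over 1.5 times and by 0.1 or more on the log2 scale. All 7489 called genes had induced CPM values that did not overlap those of WT, as did 91.4% of all genes tested. A gene near 0 in 1 group reaches the test only through the other group. In a list tested only in part, the balance of rises and falls thus depends partly on the filter. Among the 11885 genes whose mean count was at least 100, the 2 WT libraries differed by a median of 0.0607 on the log2 scale and the 2 induced libraries by 0.0989, against 0.661 between the groups.

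Chromosome 16 was shifted as a whole. Its 396 genes whose mean count was at least 50 had a median log2 fold change of -0.87, with 177 called lower and 37 higher, and the median was -0.85 in the mCdx2-OE library and also in the rCdx2-OE library, while the 2 WT libraries differed there by 0.03. On the rat allele the same gene symbols had a median of -0.08. The other chromosomes lay between -0.26 (chromosome 18) and 0.24 (chromosome X). With library totals as the scale the median of chromosome 16 was -0.48, against 0.47 for all genes. Genes of chromosome 16 are marked as such where they are named below, and the part of this shift in their values was not tested.

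**Figure D1:**
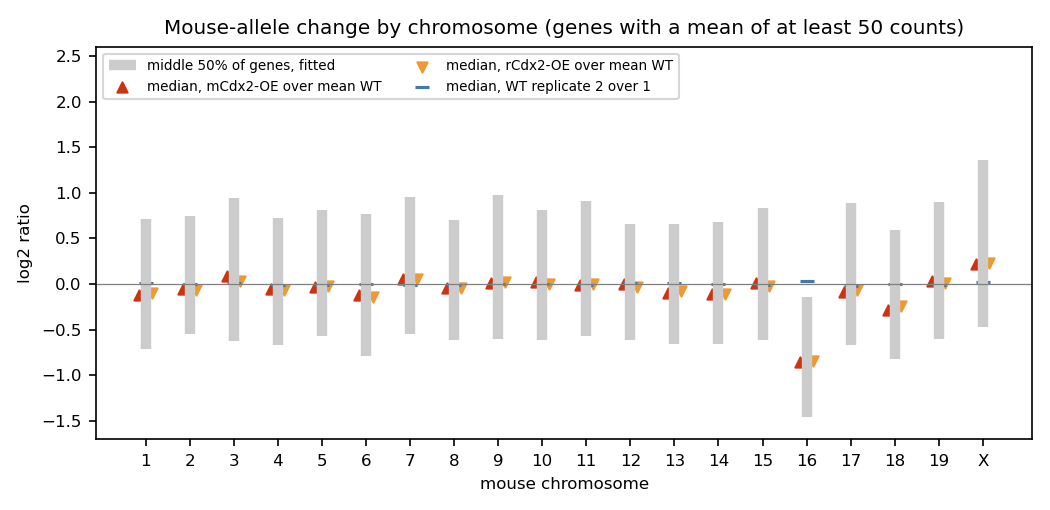
Median log2 ratio of mouse-allele genes by chromosome for each induced library over the mean of both WT libraries (triangles) and for WT replicate 2 over replicate 1 (dashes), with grey bars for the middle 50% of the fitted log2 fold changes; the mean count of each gene was at least 50. Both induced libraries sit at -0.85 on chromosome 16, and the next lowest, chromosome 18, has a fitted median of -0.26.

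The largest rises included genes of the placenta and several transporters. Slc22a3, an organic cation transporter and an imprinted gene in the placenta, was at 0, 0, 6.93 and 6.96 CPM. It had no count in either WT library, and against the floor of 3 counts over the group it was at least 156-fold higher. Another 3 had no WT count either and were bounded in the same way: Slc22a18 (0, 0, 6.64 and 5.19 CPM, at least 132-fold higher), Ankrd1, a stress-responsive ankyrin repeat protein and a target of the Hippo pathway (0, 0, 6.81 and 4.95 CPM, at least 132-fold higher), and Add2, a membrane skeleton adducin (0, 0, 5.74 and 4.71 CPM, at least 117-fold higher). The placental homeobox gene Esx1 rose from single counts (0.0938, 0.255, 108 and 97.4 CPM, log2 fold change 9.14 ± 0.16). Phlda2, an imprinted gene that restrains placental growth, did so as well (0.25, 0.113, 114 and 89 CPM, log2 fold change 9.12 ± 0.20). H19, an imprinted long non-coding RNA on chr7:142575529-142578143, stood at 14.9, 9.87, 6259 and 7122 CPM (log2 fold change 9.08 ± 0.15), and the induced pair lay far above the WT pair.

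Others of the 12 largest rises started from 3 WT counts or fewer, so they are given as ratios with counting intervals. Alpk1, an alpha-kinase, was at 0.0313, 0, 6.93 and 9.7 CPM, a ratio of 559 with a 95% counting interval of 100.1 to 22128. Rapgef4, a cAMP-responsive exchange factor for Rap, was at 0, 0.0284, 6.06 and 7.76 CPM, a ratio of 465 with a 95% counting interval of 83.1 to 18381. In both genes the 2 induced libraries were far above both WT libraries. The interferon-inducible GTPase gene Gbp2 stood at 0.0938, 0, 12.4 and 21.4 CPM, a ratio of 379.7 with a 95% counting interval of 129.7 to 1843, and Nacad at 0.0625, 0, 10.4 and 12.2 CPM, a ratio of 379 with a 95% counting interval of 105 to 3138.

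The 12 largest falls included 3 genes of the primitive streak and caudal epiblast, T, Evx1 and Nkx1-2, although the list of streak genes as a whole was divided, as given below. T, the mesoderm factor brachyury on chr17:8434423-8442496, was at 13.8, 14.6, 0.0727 and 0 CPM, and its 3 remaining counts put it 393-fold lower with a 95% counting interval of 134 to 1909. Evx1, a homeobox gene of the streak that lies beside the Hoxa cluster on chr6:52313498-52318378, was at 9.85, 9.98, 0.0727 and 0 CPM, 274-fold lower with a 95% counting interval of 93.4 to 1333. Nkx1-2, a homeobox gene of the caudal epiblast, was at 76, 77.2, 0.872 and 0.144 CPM (log2 fold change -7.23 ± 0.21). All 3 were present in both WT libraries and close to the floor after induction. Hnf4a, a nuclear receptor of visceral endoderm and liver, stood at 80.7, 84.4, 0.678 and 0.264 CPM (log2 fold change -7.45 ± 0.16). Lefty2, a secreted inhibitor and target of Nodal, stood at 173, 172, 3.54 and 2.95 CPM (log2 fold change -5.73 ± 0.09). Rian, a maternally expressed RNA of the imprinted Dlk1-Dio3 region on chr12:109603940-109661716, stood at 897, 938, 8.26 and 8.36 CPM (log2 fold change -6.79 ± 0.08). Krt23, a keratin, was at 39.4, 39.1, 0.218 and 0.144 CPM (log2 fold change -7.74 ± 0.17), and the others of the 12 were Khdc1c (-7.39), Samd11 (-7.32), Stmn3 (-6.07), Lipc (-5.95) and Pgc (-5.85), given as log2 fold changes. Adjusted p in edgeR's quasi-likelihood test was 1.24e-18 for Rian, 1.85e-17 for H19 and 2.53e-11 for Slc22a3. In the plot of these genes the WT and induced pairs well above 0 lie close together, except the induced pair of Cdx2. Pairs near 0 can lie further apart on the log axis, such as the induced values of T, Evx1 and Nkx1-2.

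**Figure D2:**
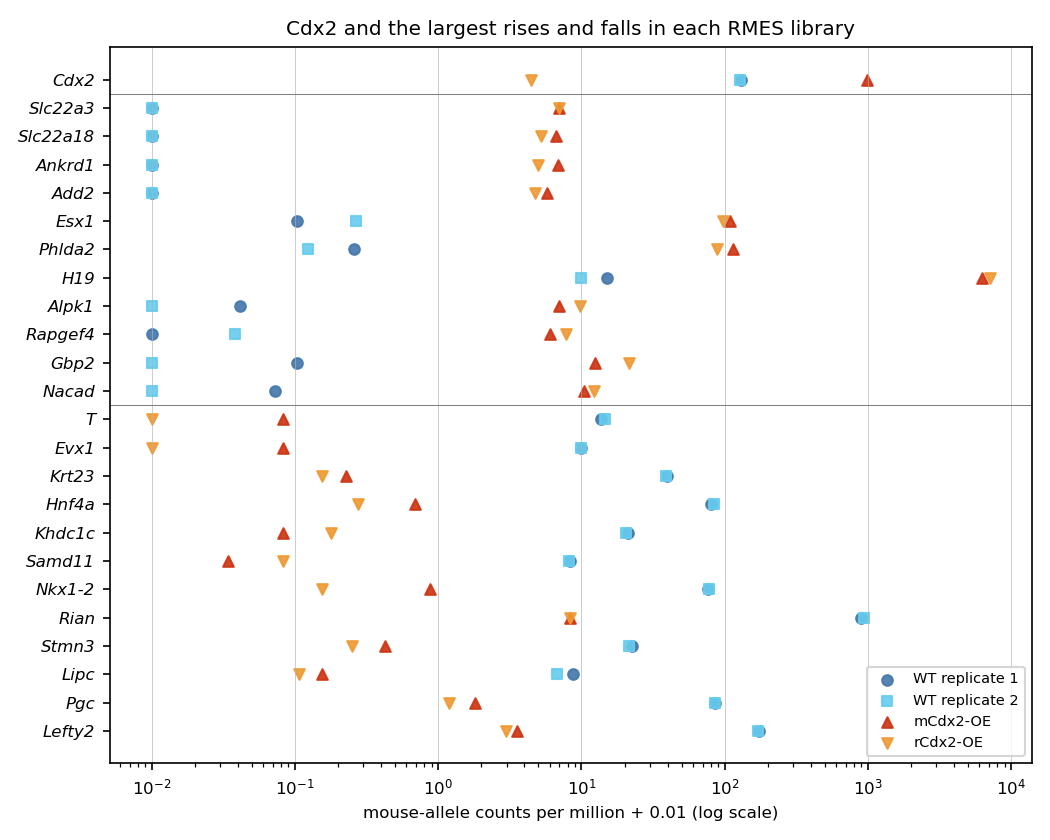
Mouse-allele CPM plus 0.01, on a log axis, of Cdx2, of 11 of the 12 largest rises and of the 12 largest falls in the 4 RMES libraries; each point is 1 library. Cdx2 is the exception, with the mCdx2-OE library above and the rCdx2-OE library below WT, while in the other 23 genes both induced libraries lie on the same side of WT.

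The caudal and Hox genes are the best known targets of Cdx2, and on the mouse allele of RMES cells 5 of 10 tested Hoxa genes fell and 1 rose. Cdx1 was at 336, 303, 22.1 and 18.3 CPM (log2 fold change -3.98 ± 0.09), so both induced libraries were far below WT, and Cdx4 was at 3.85, 3.4, 0.388 and 0.432 CPM (log2 fold change -3.13 ± 0.28). In the Hoxa list, of 11 listed genes 10 were tested, 1 rose and 5 fell, with a median log2 fold change of -1.25. Hoxa7 was at 67.3, 74.3, 5.81 and 3.6 CPM (log2 fold change -3.91 ± 0.13), Hoxa9 at 44.5, 47.5, 3.32 and 3.96 CPM (log2 fold change -3.66 ± 0.11) and Hoxa10 at 24.8, 22.8, 0.824 and 1.06 CPM (log2 fold change -4.66 ± 0.16). Hoxa3, toward the 3' end, was not called (1.5, 1.93, 1.04 and 1.3 CPM, log2 fold change -0.56 ± 0.28), and Hoxa13, at the 5' end, rose at a low level (0.406, 0.425, 1.09 and 0.864 CPM, log2 fold change 1.22 ± 0.37), a call that was lost with DESeq2.

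The other clusters were divided. In Hoxb, of 10 listed genes 8 were tested, 1 rose and 4 fell, with a median log2 fold change of -0.82 (-0.52 with 1 higher and 3 lower under the length and GC correction), with Hoxb4 (9.79, 9.27, 2.35 and 2.28 CPM, log2 fold change -2.04 ± 0.16) and Hoxb8 (10.6, 10.3, 4.43 and 3.03 CPM, log2 fold change -1.49 ± 0.17) lower and Hoxb13 higher (0.219, 0.34, 2.62 and 2.35 CPM, log2 fold change 3.12 ± 0.34). In Hoxc, all 9 listed genes were tested, 1 rose and 5 fell, with a median log2 fold change of -1.37. Hoxc4 rose (1.72, 1.08, 2.88 and 3.65 CPM, log2 fold change 1.23 ± 0.26) while Hoxc10 fell (8.72, 8.25, 2.13 and 2.98 CPM, log2 fold change -1.73 ± 0.18). The rat allele of the same libraries differed: there 5 of 7 tested Hoxc genes rose and none fell, median 1.80, beside 28.4% and 14.2% of all genes tested there. In the test of the difference between alleles the mouse response was higher for 0 and lower for 7 of 9 Hoxc genes, beside 30.3% and 31.8% of all genes tested. On the mouse allele Hoxd was the cluster without a fall: of 9 listed genes 6 were tested, 4 rose and none fell, with a median log2 fold change of 2.92. Its largest rise with counts in both WT libraries was Hoxd4 (0.281, 0.397, 11.7 and 17.7 CPM, log2 fold change 5.41 ± 0.28). Among the TALE cofactors, homeodomain partners of Hox proteins, 5 of 11 tested members rose and 1 fell, median 0.35, and Meis2 fell (30.9, 32.2, 4.46 and 4.32 CPM, log2 fold change -2.84 ± 0.11).

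In mESCs, where the induced proteins were the same, 4 induced libraries were compared with 2 WT libraries. There Hoxa9 was at 0.0294 and 0.0237 CPM in WT and at 19.3, 24.7, 15.6 and 21.1 CPM after induction, a log2 fold change of 9.41 ± 0.35. The difference between the responses, RMES minus mESC, was -13.06 ± 0.37. As the WT mESC level was close to 0, the size of both values rests on few counts. Hoxa10 was at 0.103 and 0.0592 CPM in WT and at 7.35, 9.21, 5.73 and 7.63 CPM after induction, with a difference of -11.15 ± 0.36. In the Hoxa list 9 of 9 tested members rose and none fell in mESCs, with a median of 4.66, beside 19.8% and 15.5% of all genes tested there. In the test of the difference itself (an interaction term in edgeR, adjusted p under 0.05, for which 27.8% of all genes tested were higher and 25.2% lower) the RMES response was higher for 0 and lower for 10 of 10. The count was 7 lower of 8 for Hoxb, 9 of 9 for Hoxc and 4 of 6 for Hoxd. WT levels differed too: WT RMES libraries had Hoxa9 at 44.5 and 47.5 CPM. Cell line and experiment cannot be told apart in this comparison.

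**Figure D3:**
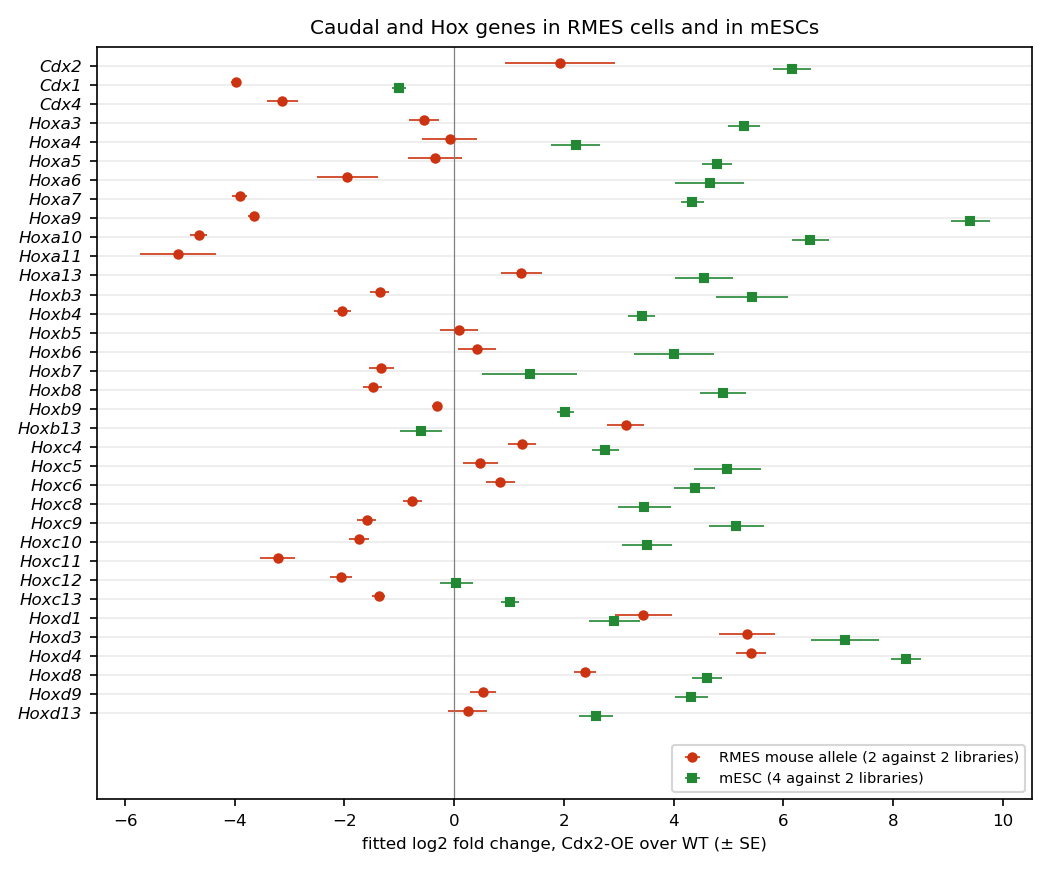
Fitted log2 fold change (± SE) of the caudal and Hox genes after Cdx2 induction on the RMES mouse allele (circles) and in mESCs (squares); genes without a square were not tested in mESCs. All Hoxa squares shown lie to the right of 0, whereas the circles of Hoxa6 to Hoxa11 lie to its left, Hoxa10 at -4.66 and 6.5; in Hoxd the circles and the squares are all to the right of 0.

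Binding of the induced proteins was read from ChIP-seq of the induced RMES cells, 74650 peaks on the mouse genome with 4357448 and 3387074 reads in peaks in its 2 libraries. All 10 tested Hoxa genes had a peak within 30000 bases of the start, as did 65.18% of all tested genes that could be placed. The strongest peak near Hoxa7 had 286 and 247 reads and lay in an exon of the antisense RNA gene Hoxaas3, 20752 bases downstream of the Hoxa7 start. The same peak was the strongest near 5 other Hoxa genes and lay nearest, at 3485 bases, to the start of Hoxa5, which was not called. The strongest near Hoxa10 had 214 and 206 reads and lay 24035 bases from its start, in an intron of Hoxa7. T had 2 peaks, the stronger (36 and 31 reads) in its own intron 4920 bases from the start, and the strongest of 3 near Evx1 (52 and 53 reads) lay between genes. Of the genes that rose, Krt20, a simple epithelial keratin, had a peak of 179 and 105 reads in its own intron. The central 180 bases of these 5 peaks are shown because they are the most strongly bound regions within 30000 bases of the starts of these genes, which need not be the nearest genes. They are from the plus strand of GRCm38 (RefSeq), with capitals for the caudal core TTTATG or its reverse complement CATAAA.
Hoxa7, chr6:52201012-52201191: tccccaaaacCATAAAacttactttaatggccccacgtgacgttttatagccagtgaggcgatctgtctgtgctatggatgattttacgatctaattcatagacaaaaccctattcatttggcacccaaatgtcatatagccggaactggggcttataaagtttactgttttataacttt
Hoxa10, chr6:52216729-52216908: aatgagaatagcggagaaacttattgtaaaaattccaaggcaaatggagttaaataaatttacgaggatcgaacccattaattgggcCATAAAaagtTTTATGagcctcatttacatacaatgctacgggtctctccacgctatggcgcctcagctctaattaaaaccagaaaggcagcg
Evx1, chr6:52298953-52299132: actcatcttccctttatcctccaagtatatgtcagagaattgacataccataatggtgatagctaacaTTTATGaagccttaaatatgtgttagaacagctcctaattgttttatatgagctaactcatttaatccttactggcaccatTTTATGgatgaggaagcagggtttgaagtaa
T, chr17:8439253-8439432: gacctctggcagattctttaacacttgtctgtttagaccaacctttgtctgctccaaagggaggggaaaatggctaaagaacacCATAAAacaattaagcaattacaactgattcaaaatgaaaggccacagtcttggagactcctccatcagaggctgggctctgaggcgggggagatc
Krt20, chr11:99436675-99436854: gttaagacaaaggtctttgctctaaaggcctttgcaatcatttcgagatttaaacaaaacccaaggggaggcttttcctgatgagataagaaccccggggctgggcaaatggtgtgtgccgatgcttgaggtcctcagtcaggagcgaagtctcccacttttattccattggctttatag
The Hoxa10 window holds the motif on both strands 4 bases apart, the Evx1 window holds it at 2 places, and the Krt20 window does not hold these letters.

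Over all genes, peaks were not more frequent near genes that rose than near the rest. A peak lay within 30000 bases of the start of 59.65% of the genes that rose, 65.81% of those that fell and 67.81% of those called neither way. Within 5000 bases the shares were 16.16%, 20.65% and 22.33%. Of the 12 largest rises 6 had a peak within 30000 bases and of the 12 largest falls 8 did. The letters TTTATG stood on either strand in the central 200 bases of 41.9% of all peaks. Of the stronger 50% of peaks 39.92% held them, and of the other peaks 43.93%. No share was taken for stretches of this length outside peaks. In promoter windows, 250 bases before to 50 after a start, they stood in 8.504% of the genes that rose, 9.417% of those that fell and 7.428% of the others. The share was 8.001% of all tested genes with a window. Of all 32851 windows, counted singly and with untested genes, 11.85% held them, which is not the same measure. These shares are a description, and a match is not a site.

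Trophoblast genes rose in part. Among regulators of trophoblast stem cells, of 17 listed genes 16 were tested, 9 rose and 2 fell, with a median log2 fold change of 1.44 (0.89 with 8 higher and 3 lower under the length and GC correction). Hand1, a factor of trophoblast giant cells and mesoderm, was at 0.188, 0.0284, 6.27 and 6.34 CPM (log2 fold change 5.87 ± 0.36). Gata3 was at 1.13, 1.65, 12.9 and 16.3 CPM (log2 fold change 3.39 ± 0.19), and Gata2 at 60.2, 50.9, 111 and 135 CPM (log2 fold change 1.15 ± 0.09). Each was higher in both induced libraries than in either WT library. Id2, an inhibitor of helix-loop-helix factors, rose as well (2.47, 2.04, 104 and 84.3 CPM, log2 fold change 5.39 ± 0.13). The list did not move as a block: Eomes, a core trophoblast stem cell factor, was not called (6.03, 6.24, 4.75 and 3.1 CPM, log2 fold change -0.65 ± 0.19), nor was Tfap2c (160.3, 152, 193 and 183 CPM, log2 fold change 0.27 ± 0.06), and Tfap2a (52.6, 50.3, 7.07 and 8.79 CPM, log2 fold change -2.7 ± 0.10) and the ligand gene Bmp4 (50.7, 49.4, 3.08 and 3.41 CPM, log2 fold change -3.95 ± 0.10) fell. In bulk samples fewer cells of a type and less RNA per cell cannot be told apart.

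Genes of differentiated placenta were mostly below the filter: of 16 listed genes 6 were tested, 5 rose and none fell, with a median log2 fold change of 4.04 (2.61 with members at 0 set to their bound). Gcm1, the master factor of labyrinth syncytiotrophoblast, was at 0.0313, 0.142, 13.9 and 19.4 CPM (log2 fold change 7.49 ± 0.33), and Plac1 at 0.406, 0.737, 41.5 and 38.1 CPM (log2 fold change 6.09 ± 0.17). Members of the list passed the filter partly through the group in which they were high. Keratins of simple epithelia, the filament proteins of trophectoderm, rose together, and all 6 listed genes were tested, 5 rose and none fell, with a median log2 fold change of 6.54 (5.94 with members at 0 set to their bound). Krt8 was at 6.72, 6.64, 365 and 453 CPM (log2 fold change 5.94 ± 0.11), its partner Krt18 at 1.31, 1.36, 283 and 344 CPM (log2 fold change 7.87 ± 0.12) and Krt7 at 0.375, 0.284, 43.2 and 50.3 CPM (log2 fold change 7.14 ± 0.17). Krt18 and Krt7 were at or below 1.36 CPM in WT. On the rat allele Krt8 changed by 3.69 ± 0.09 and Krt18 by 0.26 ± 0.07.

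Genes of cell junctions rose in part, and several junction genes were not called. In the tight junction and polarity list, all 13 listed genes were tested, 7 rose and none fell, with a median log2 fold change of 1.47, led by cingulin, Cgn (3.63, 4.37, 52.5 and 73.2 CPM, log2 fold change 3.97 ± 0.15). The scaffold gene Tjp1 was not called (207, 202, 307 and 355 CPM, log2 fold change 0.70 ± 0.07). Among claudins, the strand proteins of tight junctions, 8 of 11 tested members rose and 1 fell, median 2.41, and Cldn7 was at 0.688, 0.539, 12.1 and 9.92 CPM (log2 fold change 4.16 ± 0.22). In the epithelial adhesion list, 4 of 18 tested members rose and 2 fell, median 0.52 (0.27 with 4 higher and 2 lower under the length and GC correction). The desmosomal plaque gene Dsp rose (7.32, 5.96, 73 and 86.7 CPM, log2 fold change 3.59 ± 0.11) whereas Jup, a plaque protein of both desmosomes and adherens junctions, fell (146, 142, 71 and 66.1 CPM, log2 fold change -1.07 ± 0.06). Cdh1, E-cadherin, was at 218, 217, 266 and 275 CPM and was not called (log2 fold change 0.32 ± 0.06). Mesenchymal genes were divided, and 2 of 11 tested members rose and 3 fell, median 0.10 (-0.07 with 3 higher and 3 lower under the length and GC correction). Of this list Cdh2, N-cadherin, fell (171, 176, 25.8 and 24.7 CPM, log2 fold change -2.78 ± 0.06), as did Vim, the mesenchymal filament vimentin (129, 121, 35.5 and 39.1 CPM, log2 fold change -1.74 ± 0.07).

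Most genes of naive pluripotency fell, but not evenly. Pou5f1, which encodes Oct4, was at 1953, 1968, 416 and 369 CPM (log2 fold change -2.32 ± 0.06), and Sox2 at 464, 473, 172 and 164 CPM (log2 fold change -1.48 ± 0.06). Nanog was at 624, 655, 475 and 489 CPM, lower in both induced libraries than in WT by less than the 2-fold limit (log2 fold change -0.41 ± 0.06, or -0.02 with library totals). RNA of all 3 core factors was still present in both induced libraries. In the naive pluripotency list, all 19 listed genes were tested, 1 rose and 14 fell, with a median log2 fold change of -1.53, with 2 members on chromosome 16. Klf5 (732, 716, 125 and 132 CPM, log2 fold change -2.49 ± 0.06) and the orphan receptor Nr0b1 (68.1, 68.3, 10.8 and 8.21 CPM, log2 fold change -2.84 ± 0.10) fell furthest among members on other chromosomes, Dppa4 on chromosome 16 was at 196, 202, 43.6 and 44.4 CPM (log2 fold change -2.17 ± 0.06), and Dppa3, an oocyte and naive state gene, rose (10.3, 9.05, 31.4 and 29.3 CPM, log2 fold change 1.65 ± 0.10). Formative and primed epiblast genes were divided: of 14 listed genes 10 were tested, 2 rose and 3 fell, with a median log2 fold change of -0.38 (0.01 with library totals and -0.83 with 2 higher and 4 lower under the length and GC correction). Tcf15 fell (33.3, 32.2, 3.61 and 3.29 CPM, log2 fold change -3.25 ± 0.11). For the naive genes, 0 of 19 tested members rose and 7 fell in mESCs, with a median of -0.49, beside 19.8% and 15.5% of all genes tested there. The RMES response was higher for 2 and lower for 12 of 19 members tested, beside 27.8% and 25.2% of all genes tested.

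Markers of other lineages moved in both directions. In the primitive endoderm list, of 17 listed genes 13 were tested, 8 rose and 3 fell, with a median log2 fold change of 2.05. Gata4 rose (0.344, 0.454, 4.12 and 3.79 CPM, log2 fold change 3.29 ± 0.28) and Dab2 rose (0.25, 0.284, 4.72 and 4.13 CPM, log2 fold change 4.03 ± 0.29), while the endoderm determinants Gata6 (4.66, 3.46, 2.35 and 2.45 CPM, log2 fold change -0.75 ± 0.21) and Sox17 (0.563, 0.284, 0.266 and 0.288 CPM, log2 fold change -0.59 ± 0.50) were not called and Hnf4a and Apoe (1201, 1178, 423 and 433 CPM, log2 fold change -1.47 ± 0.06) fell. In the streak and presomitic mesoderm list, of 19 listed genes 16 were tested, 6 rose and 6 fell, with a median log2 fold change of 0.03. The segmentation gene Hes7 had no WT count (0, 0, 0.993 and 1.13 CPM, at least 23.8-fold higher), whereas T, Evx1 and Nkx1-2 were among the largest falls described above. Lateral and extraembryonic mesoderm genes showed no fall: of 14 listed genes 10 were tested, 7 rose and none fell, with a median log2 fold change of 1.5, with Tbx2 at 0.0938, 0.0567, 1.94 and 1.63 CPM (log2 fold change 4.52 ± 0.47).

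Of intestinal epithelium genes, a later site of Cdx2 action, 11 of 24 were tested, and 7 of 11 tested members rose and 3 fell, median 1.51. The brush border gene Vil1 rose at a low level (0.344, 0.255, 1.82 and 2.23 CPM, log2 fold change 2.75 ± 0.35), while Gpa33, an intestinal surface antigen, fell (232, 232, 61.3 and 55 CPM, log2 fold change -2.0 ± 0.06). Among neural ectoderm genes 3 of 8 tested members rose and 3 fell, median 0.08 (-0.19 with 3 higher and 4 lower under the length and GC correction), and among blood and endothelial genes 3 of 11 tested members rose and 3 fell, median -0.24 (0.16 with library totals). The feeder fibroblast list, a check for other cells in the dish, had 2 higher and 3 lower of 6 tested, median -0.58, and its summed level was 24.5 and 29.2 CPM in WT and 19.1 and 23.7 CPM after induction. Its defining collagen Col1a1 fell (15.4, 18.7, 3.46 and 6.29 CPM, log2 fold change -1.8 ± 0.19), and Col3a1, another, was at 0.844, 0.624, 0.0484 and 0.144 CPM.

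Among signalling genes, several targets of Wnt and Fgf fell and most tested Wnt ligands rose. For the Wnt pathway, held active in this medium by the Gsk3 inhibitor, all 16 listed genes were tested, 4 rose and 7 fell, with a median log2 fold change of -0.32 (0.07 with library totals and -0.50 with 4 higher and 7 lower under the length and GC correction) in the list of targets and feedback genes. Axin2, the usual reporter of the pathway, was at 261, 244, 52.9 and 58.3 CPM (log2 fold change -2.18 ± 0.07). Sp5 was at 211, 196, 6.66 and 7.42 CPM (log2 fold change -4.85 ± 0.08) and Lef1 at 55.1, 52.4, 1.6 and 3.31 CPM (log2 fold change -4.45 ± 0.17). These genes fell in both induced libraries, and set against mESCs the RMES response was higher for 2 and lower for 8 of 16 list members, beside 27.8% and 25.2% of all genes tested. Wnt ligands rose at low levels: of 19 listed genes 14 were tested, 11 rose and 1 fell, with a median log2 fold change of 3.05 (2.73 with members at 0 set to their bound). Members near 0 in WT reached the test through the induced libraries, so their rise was partly fixed by the filter. Wnt7b was at 0.0625, 0.113, 5.69 and 5.45 CPM (log2 fold change 5.91 ± 0.34), while Wnt5b fell (47.6, 42.6, 2.45 and 2.28 CPM, log2 fold change -4.25 ± 0.12). Of Frizzled receptors 4 of 10 tested members rose and 3 fell, median 0.26 (0.12 with 4 higher and 3 lower under the length and GC correction), and of secreted inhibitors and R-spondins 6 of 10 tested members rose and 1 fell, median 2.21.

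For Fgf signalling, whose Mek branch is inhibited in this medium, receptors and feedback genes were mostly lower, and all 16 listed genes were tested, 3 rose and 9 fell, with a median log2 fold change of -1.46. Spry4 was at 161, 169, 4.8 and 2.91 CPM (log2 fold change -5.42 ± 0.12), Etv4 at 146, 137, 8.77 and 6.0 CPM (log2 fold change -4.26 ± 0.11) and Dusp6 at 21.4, 23.7, 3.29 and 1.87 CPM (log2 fold change -3.13 ± 0.17). These 3 are transcribed in response to Erk. The receptor Fgfr2, through which trophoblast stem cells respond to Fgf, rose (3.41, 4.34, 25.5 and 23.6 CPM, log2 fold change 2.66 ± 0.13). Among ligands 4 of 11 tested members rose and 3 fell, median 0.24.

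In the Nodal pathway, of 19 listed genes 18 were tested, 1 rose and 6 fell, with a median log2 fold change of -0.54. Nodal itself was at 19.3, 19.2, 21.4 and 19.4 CPM (log2 fold change 0.08 ± 0.09) while its targets Lefty1 (6.88, 5.93, 1.45 and 1.3 CPM, log2 fold change -2.22 ± 0.20) and Lefty2 fell, and follistatin, Fst, fell with them (55.6, 58.6, 2.83 and 2.52 CPM, log2 fold change -4.41 ± 0.10). In the Bmp pathway 7 of 20 tested members rose and 5 fell, median 0.45. Among genes of the Lif and Stat3 pathway 5 of 14 tested members rose and 4 fell, median -0.40, with Jak1 higher (86.8, 85.8, 333 and 307 CPM, log2 fold change 1.89 ± 0.07) and the feedback gene Socs2 lower (129.9, 129.6, 28.3 and 23.5 CPM, log2 fold change -2.32 ± 0.08).

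Genes of retinoic acid synthesis and response mostly rose, and of 19 listed genes 17 were tested, 11 rose and 1 fell, with a median log2 fold change of 2.15. The synthetic enzyme Aldh1a1 had no WT count (0, 0, 1.62 and 1.06 CPM, at least 30.0-fold higher), and Stra8, a retinoic acid target of germ cells, was at 0.0625, 0, 5.57 and 6.46 CPM (a ratio of 202 with a 95% counting interval of 55.7 to 1675). In mESCs Stra8 changed by -1.43 ± 0.21. The receptor Rarg fell (73.6, 68.5, 30.7 and 30.5 CPM, log2 fold change -1.22 ± 0.07). In the Notch list 8 of 20 tested members rose and 3 fell, median 0.50 (0.20 with 6 higher and 3 lower under the length and GC correction), with Notch1 (29.2, 28.4, 64.7 and 70.1 CPM, log2 fold change 1.23 ± 0.07) and Notch3 (15.5, 17, 53.4 and 58.5 CPM, log2 fold change 1.78 ± 0.08) higher and the ligand Jag1 lower (70.1, 75.3, 6.71 and 4.61 CPM, log2 fold change -3.68 ± 0.12). In the Hippo list, whose Tead factors act upstream of Cdx2 in the embryo, 7 of 22 tested members rose and 1 fell, median 0.24 (0.12 with 6 higher and 1 lower under the length and GC correction). Tead3 rose (4.06, 3.91, 28.9 and 34.4 CPM, log2 fold change 2.99 ± 0.12) and Vgll1, a Tead partner of trophoblast, rose (0.469, 0.511, 14.1 and 10.6 CPM, log2 fold change 4.64 ± 0.23), and Yap1 fell (357, 358, 169 and 161 CPM, log2 fold change -1.12 ± 0.06). In the Hedgehog list 6 of 13 tested members rose and none fell, median 0.52 (0.05 with 4 higher and 1 lower under the length and GC correction).

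Many members of large families of the cell surface and the matrix rose. Of 44 collagens, 27 of 38 tested members rose and 4 fell, median 2.57. Col11a1 was at 2.16, 2.33, 14.4 and 14.8 CPM (log2 fold change 2.7 ± 0.15), and the fibrillar Col1a2 fell (4.72, 6.32, 0.678 and 0.552 CPM, log2 fold change -3.16 ± 0.25). In mESCs 13 of 34 rose and 9 fell, beside 19.8% and 15.5% of all genes tested there. The RMES response was higher for 29 and lower for 1 of 37 collagens, beside 27.8% and 25.2% of all genes tested. Among laminins 6 of 11 tested members rose and 2 fell, median 1.64. Lama1, a chain of embryonic basement membrane, fell (233, 241, 37.5 and 39.7 CPM, log2 fold change -2.62 ± 0.06). Lama3 fell as well (220.2, 214, 8.09 and 6.99 CPM, log2 fold change -4.85 ± 0.08), and Lamb3 rose (0.50, 0.709, 8.11 and 9.65 CPM, log2 fold change 3.86 ± 0.23). Of integrins 10 of 25 tested members rose and 1 fell, median 0.77, led by the laminin receptor chain Itga3 (2.85, 2.92, 81.2 and 94.5 CPM, log2 fold change 4.93 ± 0.11). Semaphorins, guidance ligands, gave 13 higher and 1 lower of 19 tested, median 2.23, their plexin and neuropilin receptors 6 higher and 1 lower of 11 tested, median 1.8, and protocadherins 20 higher and 1 lower of 33 tested, median 1.44. Clustered protocadherin genes share exons, so counts of single isoforms are uncertain.

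Among genes of the contractile cytoskeleton 7 of 16 tested members rose and 1 fell, median 0.92 (0.59 with 7 higher and 1 lower under the length and GC correction). Tropomyosin 1, Tpm1, was at 31, 31.4, 373 and 459 CPM (log2 fold change 3.74 ± 0.09) and filamin C, Flnc, at 3.25, 3.57, 71.7 and 96.7 CPM (log2 fold change 4.62 ± 0.14), whereas smooth muscle actin, Acta2, fell (10.3, 14, 2.74 and 4.18 CPM, log2 fold change -1.81 ± 0.19). Annexins, which bind membranes with calcium, gave 8 higher and 1 lower of 10 tested, median 1.63, with Anxa6 at 7.72, 7.74, 119.6 and 123.3 CPM (log2 fold change 3.97 ± 0.08). Of the transcription factor families, Gata gave 4 higher and none lower of 5 tested, median 3.29, Irx 4 higher and none lower of 5 tested, median 4.42, and forkhead 15 higher and 3 lower of 33 tested, median 0.93. Irx3 was at 0.125, 0.255, 8.86 and 8.79 CPM (log2 fold change 5.49 ± 0.27). Of 294 solute carriers tested, 117 rose and 34 fell, beside 28.3% and 16.1% of all genes tested. Of 349 zinc finger genes named Zfp and a number, 63 rose and 19 fell. They were picked by name alone, whatever other domains they hold.

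Many genes of the two-cell-like state, the Rhox cluster and the germline, a number of them kept silent by DNA methylation in somatic cells, rose. All 11 tested genes of the two-cell-like state rose, of 20 listed, with a median log2 fold change of 3.37. Their levels were low, as Zscan4c at 0.0938, 0.142, 0.92 and 0.528 CPM (log2 fold change 2.57 ± 0.55) shows, and reads of the near-identical Zscan4 and Usp17l copies can be divided among them. A gene with a WT level near 0, as here, reaches the test through the induced libraries. In the X-linked Rhox homeobox cluster, of 32 listed genes 18 were tested, 16 rose and 2 fell, with a median log2 fold change of 2.88. Rhox9 was at 1.59, 1.73, 195 and 218 CPM (log2 fold change 6.95 ± 0.10) and Rhox1 at 2.44, 1.96, 16.3 and 14.6 CPM (log2 fold change 2.81 ± 0.16), whereas Rhox5, the most widely expressed member, fell by about the 2-fold limit (934, 929.9, 460.5 and 469 CPM, log2 fold change -1.0 ± 0.06). Among germline genes known to be silenced by methylation 10 of 21 tested members rose and 2 fell, median 0.88; Taf7l rose (1.91, 2.1, 27 and 30.2 CPM, log2 fold change 3.83 ± 0.13) and Dazl fell (486, 471, 184 and 119 CPM, log2 fold change -1.66 ± 0.13). In the list of the methylation machinery none of 12 tested members rose and 2 fell, median -0.32, beside 28.3% and 16.1% of all genes tested. Uhrf1, needed to maintain the mark, fell (948, 931, 419 and 375 CPM, log2 fold change -1.24 ± 0.06), and the de novo enzyme Dnmt3b was not called (262, 261, 146 and 119 CPM, log2 fold change -0.98 ± 0.08). Whether these changes bear on the germline genes was not tested.

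Imprinted genes showed some of the widest changes in either direction: all 35 listed genes were tested, 16 rose and 7 fell, with a median log2 fold change of 0.72 (0.48 with 16 higher and 6 lower under the length and GC correction). H19 and its neighbour Igf2 (0.0625, 0.142, 2.16 and 2.91 CPM, log2 fold change 4.56 ± 0.43) rose together, although in the embryo they are expressed from opposite parental copies. Of the maternally expressed RNAs of the Dlk1-Dio3 region 3 fell together, namely Rian, Meg3 (441, 492, 10.4 and 11.4 CPM, log2 fold change -5.42 ± 0.09) and Mirg (33.1, 39.7, 0.775 and 1.39 CPM, log2 fold change -5.06 ± 0.17). In mESCs H19 changed by 6.67 ± 0.15, Rian by -0.41 ± 0.08 and Meg3 by -0.31 ± 0.07.

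Many genes of growth and energy fell. Of 85 cytosolic ribosomal protein genes none rose and 56 fell, with a median of -1.29. Rplp1 was at 1824, 1736, 308 and 264 CPM (log2 fold change -2.64 ± 0.07), while Rpsa (1987, 1988, 1311 and 1247 CPM, log2 fold change -0.64 ± 0.05) and Rplp0 (2102, 2051, 1492 and 1404 CPM, log2 fold change -0.52 ± 0.05) stayed within the 2-fold limit. In the nuclear respiratory chain list, of 84 listed genes 81 were tested, 1 rose and 42 fell, with a median log2 fold change of -1.01, with Ndufa1 at 35.9, 33.4, 5.21 and 4.71 CPM (log2 fold change -2.8 ± 0.11). Ribosome biogenesis genes gave none higher and 9 lower of 21, median -0.95. The nucleolar methyltransferase Fbl was at 511, 480.1, 147 and 132 CPM (log2 fold change -1.83 ± 0.07). Of 67 histone genes 21 were tested and 17 fell, with a median of -1.91 (-1.23 with 0 higher and 11 lower under the length and GC correction); their main transcripts lack a poly(A) tail, so poly(A) libraries see them only in part. DNA replication genes gave none higher and 6 lower of 24, median -0.64, and 3 of them lie on chromosome 16. Mcm5 was at 644, 633, 274 and 243 CPM (log2 fold change -1.3 ± 0.07). The list of cyclins, their kinases and inhibitors was divided, with 5 higher and 4 lower of 23 tested, median -0.37 (0.02 with library totals and -0.22 with 6 higher and 4 lower under the length and GC correction). Ccnd1 (589, 558, 84.8 and 71.6 CPM, log2 fold change -2.87 ± 0.08) and Cdk6 (228, 243, 27.9 and 29.6 CPM, log2 fold change -3.03 ± 0.06) fell and the inhibitor Cdkn1c, an imprinted gene, rose (1.06, 0.851, 14 and 11.8 CPM, log2 fold change 3.76 ± 0.19).

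Gene length moved with these groups. Among genes whose mean count was at least 50, the shortest of 10 length bins (up to 1669 bases) had 35.4% of genes called lower and a median log2 fold change of -0.60, and the longest had 6.26% called lower and a median of 0.17. The rat allele showed medians of -0.60 and 0.19 in the same bins. Over 10 bins of transcript GC content the share called higher went from 14.3% to 34.2%. The ribosomal, respiratory and histone lists have median lengths of 1726, 1675 and 741 bases, against 3831.5 for all genes tested. With the correction for length and GC, 42 ribosomal protein genes fell (median -0.98), 22 of the respiratory list (median -0.68) and 11 histone genes (median -1.23). Length and membership of these lists cannot be told apart fully, since nearly all their members are short.

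**Figure D4:**
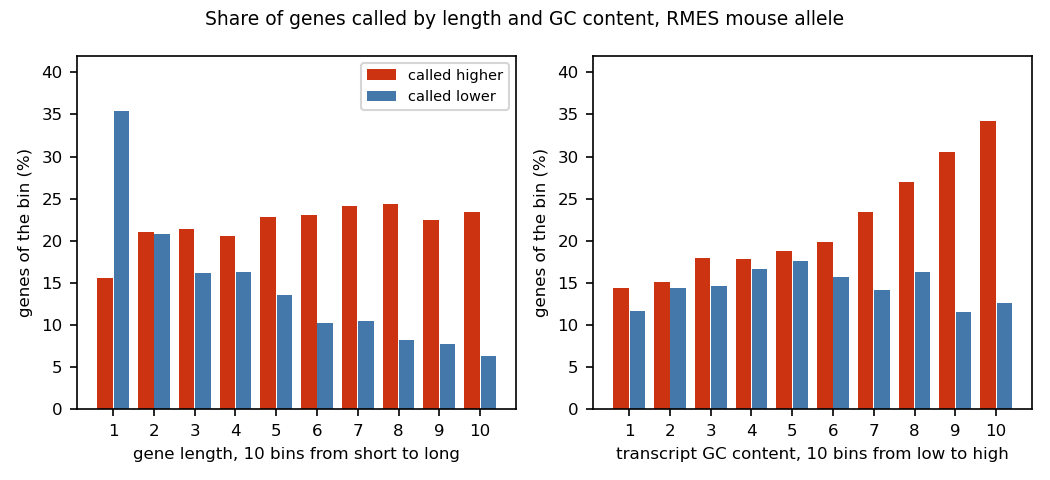
Share of mouse-allele genes called higher (red) and lower (blue) in 10 bins of gene length and 10 bins of transcript GC content, for genes whose mean count was at least 50. The share called lower goes from 35.4% in the shortest to 6.26% in the longest bin, and the share called higher is 14.3% in the lowest and 34.2% in the highest GC bin.

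Other metabolic and stress lists differed in how many members were called. For cholesterol synthesis none rose and 1 of 24 fell, median -0.04 (0.17 with upper quartile scaling and 0.35 with library totals and -0.17 with 0 higher and 0 lower under the length and GC correction). In mESCs 11 of 24 tested members rose and none fell, with a median of 0.88, beside 19.8% and 15.5% of all genes tested there. The RMES response was higher for 0 and lower for 21 of 24, beside 27.8% and 25.2% of all genes tested. Genes of the amino acid response gave none higher and 10 lower of 21, median -0.81, among them asparagine synthetase, Asns (1402, 1377, 601 and 592 CPM, log2 fold change -1.22 ± 0.05). Glycolysis genes were divided, 5 higher and 5 lower of 21 tested, median -0.08 (0.13 with upper quartile scaling and 0.31 with library totals and -0.35 with 4 higher and 4 lower under the length and GC correction): the glucose transporter Slc2a1 rose (234, 244, 646 and 655 CPM, log2 fold change 1.44 ± 0.06) and Hk2 fell (547, 521, 192 and 192 CPM, log2 fold change -1.48 ± 0.06).

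Many immediate early genes and interferon genes rose. In the immediate early list, of 16 listed genes 15 were tested, 10 rose and 3 fell, with a median log2 fold change of 1.85. Fos was at 0.844, 1.16, 4.02 and 3.65 CPM (log2 fold change 1.92 ± 0.24), Egr1 at 0.594, 0.227, 7.39 and 3.72 CPM (log2 fold change 3.77 ± 0.39) and Fosl2 at 1.25, 1.42, 19.3 and 22.9 CPM (log2 fold change 3.98 ± 0.16), while Myc (65.3, 61.7, 23.7 and 19.1 CPM, log2 fold change -1.57 ± 0.09) fell. In mESCs the list had a median of -0.56. The RMES response was higher for 9 and lower for 3 of 14, beside 27.8% and 25.2% of all genes tested. Interferon and antigen presentation genes gave 11 higher and none lower of 18 tested, median 1.93; the immunoproteasome gene Psmb9 was at 0.156, 0.255, 6.49 and 6.53 CPM (log2 fold change 4.95 ± 0.28) and Irf7 at 0.0313, 0.0851, 1.91 and 1.85 CPM (log2 fold change 4.91 ± 0.48).

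**Figure D5:**
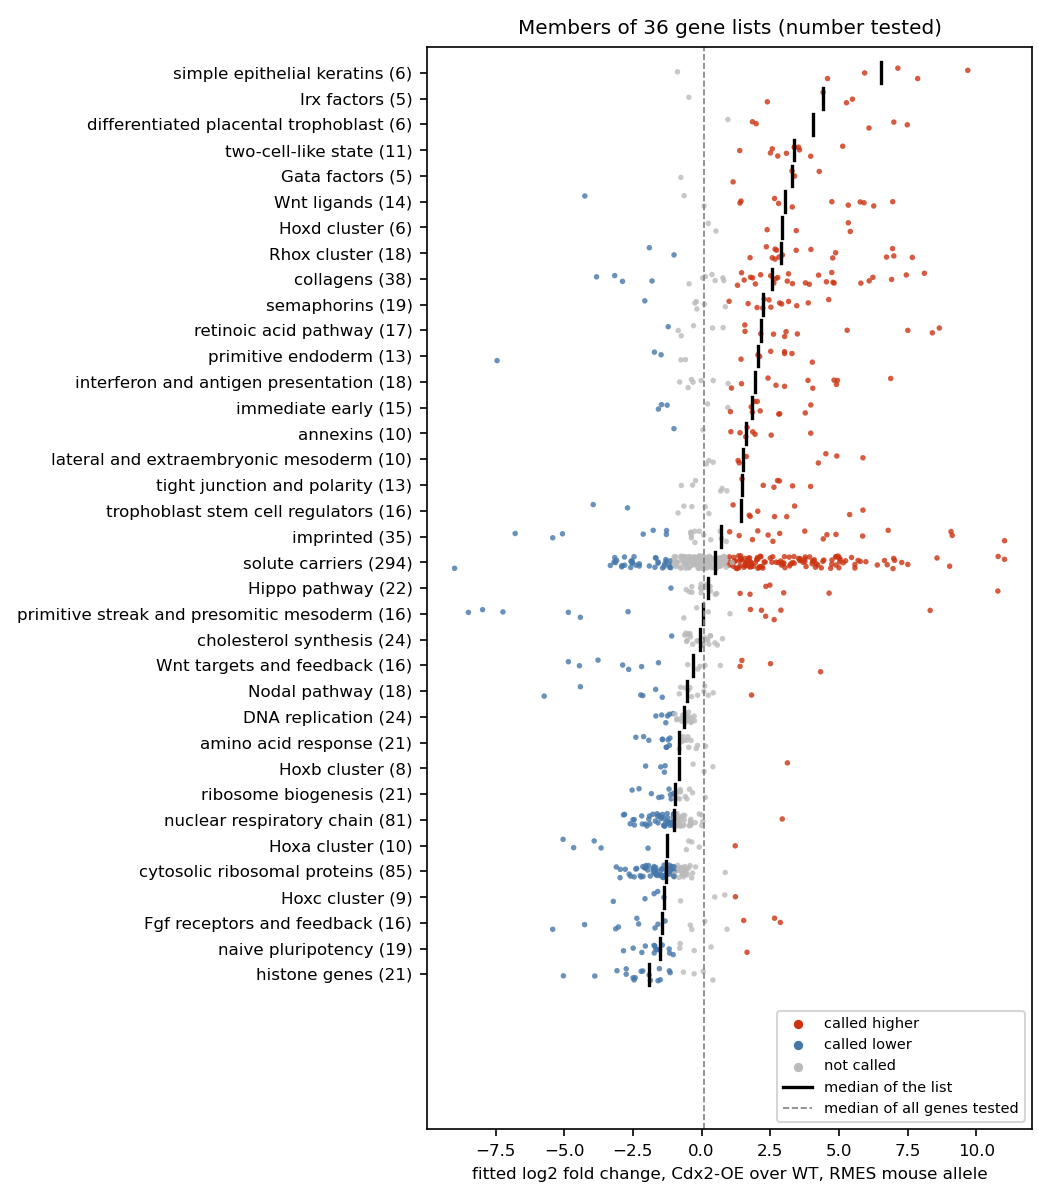
Fitted log2 fold change of every tested member of 36 gene lists on the RMES mouse allele, coloured by call, with a bar at each list's median and a dashed line at the median of all genes tested (0.07); the number tested is in parentheses, and members at 0 counts in 1 group are placed at their fitted value, which depends on the prior count. Keratins (median 6.54) head the order and histone genes (-1.91) close it.

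The mouse allele and mESCs could be compared over all genes because they share no library. Of 3914 genes that rose on the mouse allele and were tested in both, 51.35% rose and 6.898% fell in mESCs, where 19.8% of all genes tested rose and 15.5% fell. Of 2412 genes that fell, 47.72% fell and 4.519% rose in mESCs. Seen from the other side, 67.56% of the 2975 genes that rose in mESCs rose on the mouse allele and 3.664% fell. Of all 15396 genes tested in both, 3914 rose and 2412 fell on the mouse allele. Slc22a18 and Ankrd1, which had no count in WT on the mouse allele, were present in WT mESCs. In mESCs Slc22a18 was at 1.12 and 0.805 CPM in WT and at 2.08, 1.64, 2.6 and 2.21 CPM after induction, and Ankrd1 at 0.368 and 0.343 CPM in WT and at 0.974, 1.23, 1.02 and 0.534 CPM after induction.

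The rat allele of the same 4 libraries is a readout of the same cells. There 28.4% of the genes tested rose and 14.2% fell. In the interaction test over 13605 genes with the same symbol, with the library as a block, the mouse response was higher than the rat response for 30.3% and lower for 31.8%. Pigm, an enzyme of GPI anchor synthesis, was at 51.1, 53.5, 46.7 and 36.4 CPM on the mouse allele and at 69.2, 77.8, 0 and 0 CPM on the rat allele (difference 13.93 ± 0.28). Naalad2 was at 6.88, 5.96, 3.68 and 3.29 CPM on the mouse and 0, 0, 1.9 and 2.48 CPM on the rat allele (difference -10.11 ± 0.83), and Krt23 on the rat allele at 0.198, 0.324, 1.55 and 1.07 CPM (difference -10.05 ± 0.42). Chdh, choline dehydrogenase, was at 0.0313, 0.113, 5.52 and 4.87 CPM on the mouse and 52.8, 52.1, 4.08 and 3.26 CPM on the rat allele (difference 9.88 ± 0.29), and Moxd1 at 0, 0.0567, 7.73 and 8.02 CPM on the mouse and 31.9, 32.8, 12.7 and 11.4 CPM on the rat allele (difference 9.3 ± 0.35). Pigm on the rat allele was at 0 in both induced libraries, and Naalad2 was at 0 there in both WT libraries. Fitted differences that involve an allele at 0 depend on the prior count and are not fold changes.

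The mCdx2-OE and rCdx2-OE libraries differed from each other by more than the WT libraries did. The chi-square of their counts over genes was 11.8 per degree of freedom, against 2.64 between the WT libraries, which compares libraries and not the proteins. For the ratios of single libraries 0.5 CPM was added to each value, which draws ratios of genes near 0 toward 1. On that measure, 9 of the 11885 genes whose mean count was at least 100 differed by over 2-fold between them and 0 between the 2 WT libraries. In plain CPM genes near 0 can differ by more, as Hnf4a did (0.678 and 0.264 CPM in mCdx2-OE and rCdx2-OE). These 9 were Cdx2, with 7.63 on the log2 scale (mCdx2-OE over rCdx2-OE), A2m (1.16), Gpx2 (1.15), Nkx1-2 (1.09), Magea8 (1.01), Khdc1a (1.01), L3mbtl1 (-1.05), Neat1 (-1.19) and Ccdc80 (-1.45). With 1 library for each protein, these differences have no replicate check and no gene was tested.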

How the data were processed

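Poly(A) RNA-seq of RMES cells was made by the authors with a stranded protocol. Reads were aligned with STAR 2.7.0d to mm10 and to rn6, and each read was assigned to the species with the smaller edit distance; the rule for ties is not given in the sources used here. The authors' deposited tables hold read counts per gene from featureCounts, with Ensembl genes by name and without pseudogenes, and the gene length in bases as another column. The ChIP-seq table of the authors holds read counts in peaks called over merged RMES libraries, trimmed with cutadapt 2.6 and aligned with Bowtie2 2.3.4.3.

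From the deposited counts, edgeR 4.0.16 in R 4.3.3 (TMM, filterByExpr, glmQLFit, glmQLFTest) compared 2 induced with 2 WT libraries, with Benjamini-Hochberg adjustment over all 16858 genes tested. The mt- genes were left out. Interaction terms tested the difference from the rat allele (library as a block) and from mESCs (6 libraries). DESeq2 1.42.0, other scalings, filters and fold limits, leaving out each library, and a correction for gene length and GC content were alternatives. The fits were tested on simulated data. Folds against a group at 0 counts use a floor of 3 counts over the group, and ratios with 1 to 3 counts in a group carry exact 95% counting intervals; these cover counting error only.

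Named genes were Cdx2, the 12 largest rises and 12 largest falls among called genes whose mean count was at least 100, without overlap, off chromosome 16 and not predicted genes, the first 3 members and 3 largest changes each way of each gene list, and 5 genes for each interaction; Hoxa5, A2m, Gpx2, Magea8, Khdc1a, L3mbtl1, Neat1 and Ccdc80 are named because of their values. Results for 6 genes are not reported here. The members and the gene lists were chosen with earlier results of these data known. Lists are described by counts and medians without a test. Gene coordinates and start sites are of GRCm38, from the GENCODE annotation, and 235 tested genes were given no position from it. The promoter windows and the printed sequences are from RefSeq. The libraries held 36166038 to 41418817 mouse-allele counts, which limits the precision of genes with few counts. The 14 count columns of other constructs in the mESC tables, the ATAC-seq table and the other peak tables were not used.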

Additional observations from a re-analysis of the deposited data

Results flagged for a closer look

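The responses of the mouse and the rat allele to induction differed, by the interaction term in edgeR's quasi-likelihood test at an adjusted p under 0.05, for 4121 genes with a higher and 4328 with a lower mouse response, of 13605. The named genes with the most different responses, as mouse minus rat on the log2 scale, were Pigm at 13.93, Naalad2 at -10.11, Krt23 at -10.05, Chdh at 9.88 and Moxd1 at 9.3. The responses of the RMES mouse allele and of mESCs differed by the same kind of test for 5004 genes with a higher and 4522 with a lower RMES response, of 17973. Here the most different were Hoxa9 at -13.06, Hoxa10 at -11.15, Slc22a18 at 9.62, Ankrd1 at 9.37 and Stra8 at 8.94, as RMES minus mESC. Slc22a18 and Ankrd1 had no count on the mouse allele in the RMES WT libraries, and Stra8 and Moxd1 had 2 each there. Pigm and Naalad2 were at 0 in a group on the rat allele. The size and the order of these fitted differences thus depend on the prior count. Hoxa9 was close to 0 in WT mESCs, at 0.0294 and 0.0237 CPM, so the size of its difference rests on few counts.

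Outside the main measurement, the mt- genes of the rat table took 14.3% of the rat counts in the mCdx2-OE library and 13.9% in the rCdx2-OE library, against 0.00592% and 0.00775% in the WT libraries, whose mt- reads fell on the mouse genome. With 2 libraries in a group, no sample was tested for standing apart from its group.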

How the results depend on the processing

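The counts of genes that rose and fell (4771 and 2718) stayed within 1.5 times under RLE and upper quartile scaling, DESeq2 (4331 and 2682), no filter, kept mt- genes, left-out chromosome 16 genes and the length and GC correction. With library totals as the scale 1771 genes fell, and 77.1% of calls were higher in place of 63.7%. A mean of at least 50 counts left 3005 and 1668 genes, a 4-fold limit 2938 and 1071, and any fold 7213 and 6619; a 1.5-fold limit gave 4479 lower. Leaving out each library in turn gave 4579 to 4669 genes higher and 2622 to 3096 lower, with the lone library assumed to vary like the other group. The same gave 4138 to 4434 and 3842 to 4046 for the difference from mESCs, and 3698 to 3970 and 3536 to 4271 for the difference from the rat allele. The median of chromosome 16 was -0.48 with library totals and -0.83 with the length and GC correction. The share of genes with a peak was 16.16% (rose), 20.65% (fell) and 20.32% (all) within 5000 bases, and 33.97%, 39.09% and 38.69% with the stronger 50% of peaks.

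Among genes named in the text, Cdx2 changed by -4.86 without the mCdx2-OE library and by 2.93 without the rCdx2-OE library, and Pigm, not called on the mouse allele, by 0.0597 with library totals. Hoxa13 missed an adjusted p of 0.05 with DESeq2, without WT replicate 1 and without the mCdx2-OE library; the cause was not tested. In all, 2055 values of named genes kept their direction and their side of the threshold, 17 no longer passed it and 11 newly did. The length and GC correction was chosen after the data were seen. No paired analysis was possible because the labels give the induced RMES libraries no replicate number. Genes with few counts limit what the 4 libraries can show, and differences between lines, cultures and mitochondrial genomes cannot be told apart from induction.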

Other observations

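Smaller gene groups outside the comparisons above did not all move in the same direction. Among cytochromes P450, enzymes of lipid and drug oxidation, 14 of 27 tested members rose and 4 fell, median 1.08, and Cyp27a1, a sterol hydroxylase, was at 0.0625, 0.0567, 8.53 and 8.19 CPM (log2 fold change 7.06 ± 0.32). Among serpins, 8 of 20 tested members rose and 8 fell, median 0.06. Serpina3m was at 22.6, 24, 3.88 and 4.73 CPM (log2 fold change -2.44 ± 0.12). Klf factors gave 2 higher and 5 lower of 16 tested, median -0.56, Sox factors 5 higher and 4 lower of 16 tested, median 0.43 and T-box factors 4 higher and 2 lower of 13 tested, median 0.17 (0.05 with 3 higher and 2 lower under the length and GC correction); Sox4 was at 2.22, 2.67, 18 and 19.8 CPM (log2 fold change 2.94 ± 0.14). Of 13 olfactory receptor genes tested, of 1091 listed, 6 rose and 3 fell, and Olfr1349 was at 0.25, 0.369, 12.6 and 16.7 CPM (log2 fold change 5.54 ± 0.25).

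In the heat shock list 3 of 12 tested members rose and 2 fell, median -0.57, and in the oxidative stress list none rose and 4 of 13 fell, median -0.79; glutathione reductase, Gsr, was at 401, 409, 128 and 107 CPM (log2 fold change -1.78 ± 0.08). Hypoxia response genes gave 6 higher and 3 lower of 20 tested, median -0.10 (0.11 with upper quartile scaling and 0.29 with library totals and 0.02 with 7 higher and 3 lower under the length and GC correction), and Hif3a was at 0.438, 0.624, 14 and 15.2 CPM (log2 fold change 4.76 ± 0.20). Lysosomal genes gave 5 higher and 1 lower of 20 tested, median 0.14 (0.35 with 5 higher and 1 lower under the length and GC correction), and cathepsin H, Ctsh, was at 0.25, 0.284, 8.57 and 7.59 CPM (log2 fold change 4.9 ± 0.26). Targets of p53 gave 4 higher and 4 lower of 20 tested, median -0.12 (0.09 with upper quartile scaling and 0.28 with library totals), with Btg2 at 23.6, 24.3, 111 and 106 CPM (log2 fold change 2.18 ± 0.07) and Cdkn1a at 209, 198, 205 and 242 CPM (log2 fold change 0.14 ± 0.07).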
